A study of Mus musculus with 5 samples.

Results

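The mitochondrial ribosomal protein genes are the nuclear genes for the protein part of the mitochondrial ribosome, and they were taken here as every gene whose symbol is Mrpl or Mrps followed by a digit. This gave 78 of the 16413 genes in the deposited count table, 49 with a large-subunit symbol (Mrpl) and 29 with a small-subunit symbol (Mrps). All 78 passed the filter on low counts, which left 15765 genes, and the lowest count of any of them in any library was 232. The thyroids came from LSL-BrafV600E;TgCreERT2 mice, in which a silenced oncogenic Braf allele (V600E) is switched on by a tamoxifen-activated Cre driven by what is, in common usage of the name, the thyroglobulin promoter. Tamoxifen was given for 1 week at 8 weeks of age to both groups, and the mice then ate chow (2 libraries, replicates 2 and 8) or a high fat diet (3 libraries, replicates 2, 9 and 10) for 12 weeks, from 10 to 22 weeks of age. No group in this comparison lacked the mutation or tamoxifen, and nothing in the labels ties a replicate number to an animal of its own. The p-values therefore measure only how much these libraries varied, which may be technical.

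Mitochondria keep their own ribosome for the few membrane proteins of the respiratory chain that mitochondrial DNA encodes. Its rRNAs are mitochondrial, while every one of its proteins is encoded in the nucleus, made in the cytosol and imported. The small subunit binds the mRNA and reads the codons, and the large subunit joins the amino acids and feeds the chain to the inner membrane. Follicular cells of the thyroid draw on mitochondrial respiration for ATP used in hormone synthesis. Some symbols mislead: Mrps30 and Mrps18a encode proteins that sit in the large subunit, and Mrps36 encodes a protein now known as part of the 2-oxoglutarate dehydrogenase complex.

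Values per library are given below in the order chow 2, chow 8, high fat diet 2, 9 and 10, and their total counts were 43494747, 43774210, 52663677, 49157018 and 47307084. The mitochondrial ribosomal protein genes took 0.143%, 0.139%, 0.156%, 0.144% and 0.155% of the counts, while Tg, the thyroglobulin gene, alone took 18.7%, 22.1%, 17.1%, 14.9% and 10.9%. All 14 follicular cell markers were listed, with 4 higher and 3 lower at unadjusted p, and markers of other tissue varied between libraries. The 10 airway epithelium markers summed to 6454 CPM in high fat diet 10 and to between 714 and 1380 CPM in the other libraries. The neutrophil markers, 6 of 10 listed, summed to 405 CPM there and to between 90.6 and 169 CPM elsewhere. The 15 skeletal muscle markers summed to 839 CPM in chow 8 and to between 1252 and 2420 CPM elsewhere. Between the diets, the log2 fold changes of all 10 airway markers lay above 0, and their median was 0.80. At unadjusted p 4 of these 10 were higher. For 6 of 10 every high fat diet library was above both chow libraries, as for 10.6% of all genes. Among white adipocyte genes 6 of 11 had every high fat diet library below, as did 10.3% of all genes. Their log2 fold changes had a median of -0.33, with 3 of 11 above 0. Their sums overlapped between the diets, at 554 and 609 CPM on chow and 530, 553 and 663 CPM on the high fat diet. Of the 14 follicular cell markers 4 lay wholly above and 4 wholly below. The muscle and neutrophil lists had none at unadjusted p, white adipocyte genes had 4 of 11 lower and cartilage genes 2 of 6 higher, where 2.95% of all genes were higher and 2.47% lower. For brown adipocyte, macrophage, B and plasma cell, parathyroid and C cell markers the numbers higher and lower were 0 and 0 of 5, 0 and 0 of 10, 0 and 1 of 4, 0 and 0 of 2, and 1 and 0 of 6. The part of these tissues in the differences below was not tested, and in bulk RNA fewer cells of a type and less RNA per cell cannot be told apart.

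Levels are compared between genes as FPKM, which divides by transcript length. The mitochondrial ribosomal protein genes had a median of 14.03 FPKM against 6.69 FPKM for all genes tested, and 69 of 78 lay above that median. Their ranks ran from the 31.9th to the 94.7th percentile of tested genes, with a median at 71.3. The large-subunit genes had a median of 15.3 FPKM and the small-subunit genes 12.9 FPKM. The highest member, Mrps6, stood 19.5 times above the lowest, Mrps25, although the assembled ribosome holds single copies of most of these proteins. Exons of Mrps6 overlap those of Slc5a3 on the same strand, so its level may hold reads of that gene. Mrps25 has a transcript of 6073 bases, against a median of 1224 bases for the 78. In CPM, which does not divide by length, Mrps25 lay above the small-subunit median in every library. Exons of Mrps25 overlap those of Nr2c2 on the opposite strand by 4590 bases. Nr2c2 had means of 195 CPM on chow (SD 2.79) and 186 CPM on the high fat diet (SD 17.4). Whether counting used strand is not given, so the level of Mrps25 is uncertain. The part of length or overlap in its low FPKM was not tested.

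**Figure D1:**
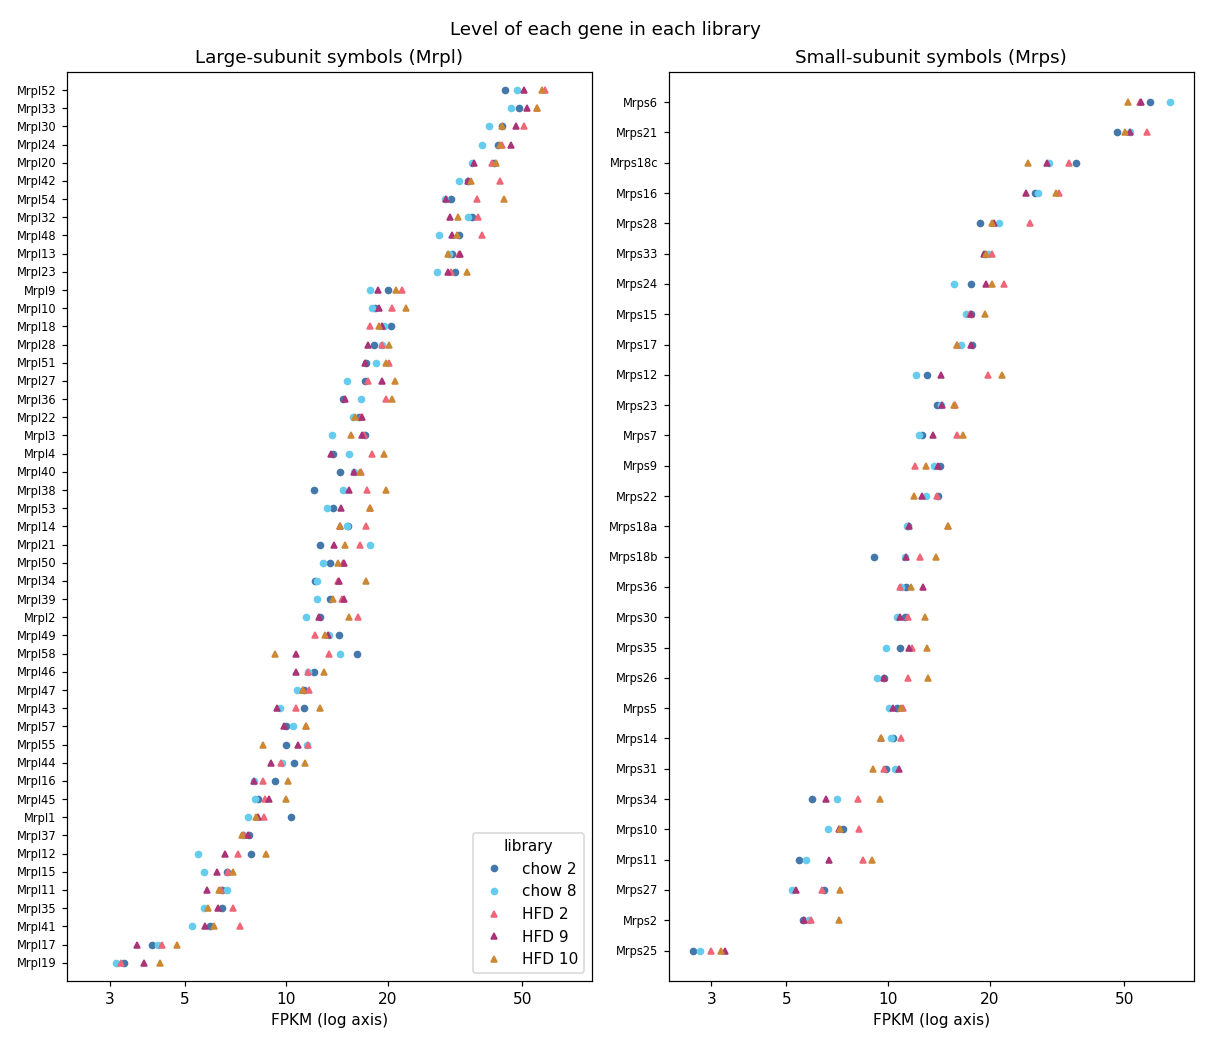
FPKM (log axis) of each of the 78 genes in each of the 5 libraries, with circles for chow and triangles for high fat diet, and genes ordered by their mean within each subunit. Mrps6, Mrps21, Mrpl52 and Mrpl33 lie at the top with means of 51.4 to 58.2 FPKM, Mrps25 and Mrpl19 at the bottom with 2.98 and 3.54 FPKM, and for most genes the libraries of both diets intermingle.

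Among large-subunit genes, Mrpl52 was highest, at 44.3 and 48.1 FPKM on chow and 58.4, 50.6 and 57.2 FPKM on the high fat diet. Mrpl33, a small protein with a bacterial counterpart, followed at 48.8 and 46.2 FPKM on chow and 55.1, 51.6 and 55.3 FPKM on the high fat diet. Mrpl30 was the next, at 43.5, 39.7, 50.6, 47.7 and 43.4 FPKM. For Mrpl52 and Mrpl33 each high fat diet library was above both chow libraries in FPKM, while for Mrpl30 the diets overlapped. In CPM, without the shift of 0.08 (log2) that FPKM carries over all genes, Mrpl33 kept this separation and Mrpl52 did not, with chow 8 at 21.5 CPM above high fat diet 9 at 20.9 CPM. Mrpl52 and Mrpl33, at means of 51.7 and 51.4 FPKM, did not differ beyond the spread of their libraries. At the other end stood Mrpl19, with 3.30, 3.13, 3.23, 3.79 and 4.24 FPKM, and Mrpl17, with 4.01, 4.16, 4.28, 3.61 and 4.74 FPKM. Both encode counterparts of bacterial ribosomal proteins, and their ranges overlapped each other. Exons of Mrpl19 overlap those of Gcfc2 on the opposite strand by 1962 bases, so the level of Mrpl19 is uncertain.

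Among small-subunit genes, Mrps6 was the highest of all 78, at 59.8 and 68.1 FPKM on chow and 55.7, 56.0 and 51.2 FPKM on the high fat diet. Mrps21 stood at 47.6, 52.0, 58.3, 52.1 and 50.1 FPKM, a range that overlapped that of Mrps6, and Mrps18c at 36.0, 29.9, 34.3, 29.6 and 25.9 FPKM, below both in every library. The lowest were Mrps25, at 2.64, 2.78, 2.99, 3.29 and 3.21 FPKM, and Mrps2, at 5.61, 5.85, 5.92, 5.64 and 7.15 FPKM. These levels order the genes within this tissue only, since FPKM depends on the transcript model used for each length.

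The diets were compared gene by gene with edgeR on the counts. None of the 78 genes passed an adjusted p of 0.05, where 0% of all genes passed as well, and the lowest adjusted p among the 78 was 0.856 (edgeR). DESeq2 also called 0 of the 78, and 93 of all genes. At unadjusted p under 0.05, 2 of 78 were higher on the high fat diet, Mrps12 and Mrps11, where 2.95% of all genes were higher. A single gene, Mrps6, was lower, where 2.47% of all genes were lower. Fold changes are given as log2 of high fat diet over chow. They ran from -0.32 to 0.48 with a median of 0.02, beside a median of 0.01 over all genes, and 46 of 78 (59.0%) lay above 0, where 52.7% of all genes did. By these counts the mitochondrial ribosomal protein genes stood close to the background of the whole table.

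The intervals bound the difference between these libraries, which the labels do not tie to separate animals, and not a difference across mice. The 95% interval lay within 1.5-fold in either direction for 67 of 78 genes (85.9%), against 56.9% of all genes, and within 2-fold for all 78, against 78.4%. The estimates themselves were under 0.1 in size for 39 genes and under 0.25 for 74. The median spread between libraries of one diet was 0.13 (pooled SD of log2 CPM), against 0.18 for all genes. These comparisons with all genes were not matched for level. The 78 had a median of 14.03 FPKM against 6.69 FPKM for all genes tested. With groups of 2 and 3 libraries, 12 of 78 (15.4%) had every high fat diet library above both chow libraries, where 10.6% of all genes did, and 9 of 78 (11.5%) had every one below, where 10.3% did. A p that misses the threshold does not show equal levels, and these intervals give what differences the data allow.

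**Figure D2:**
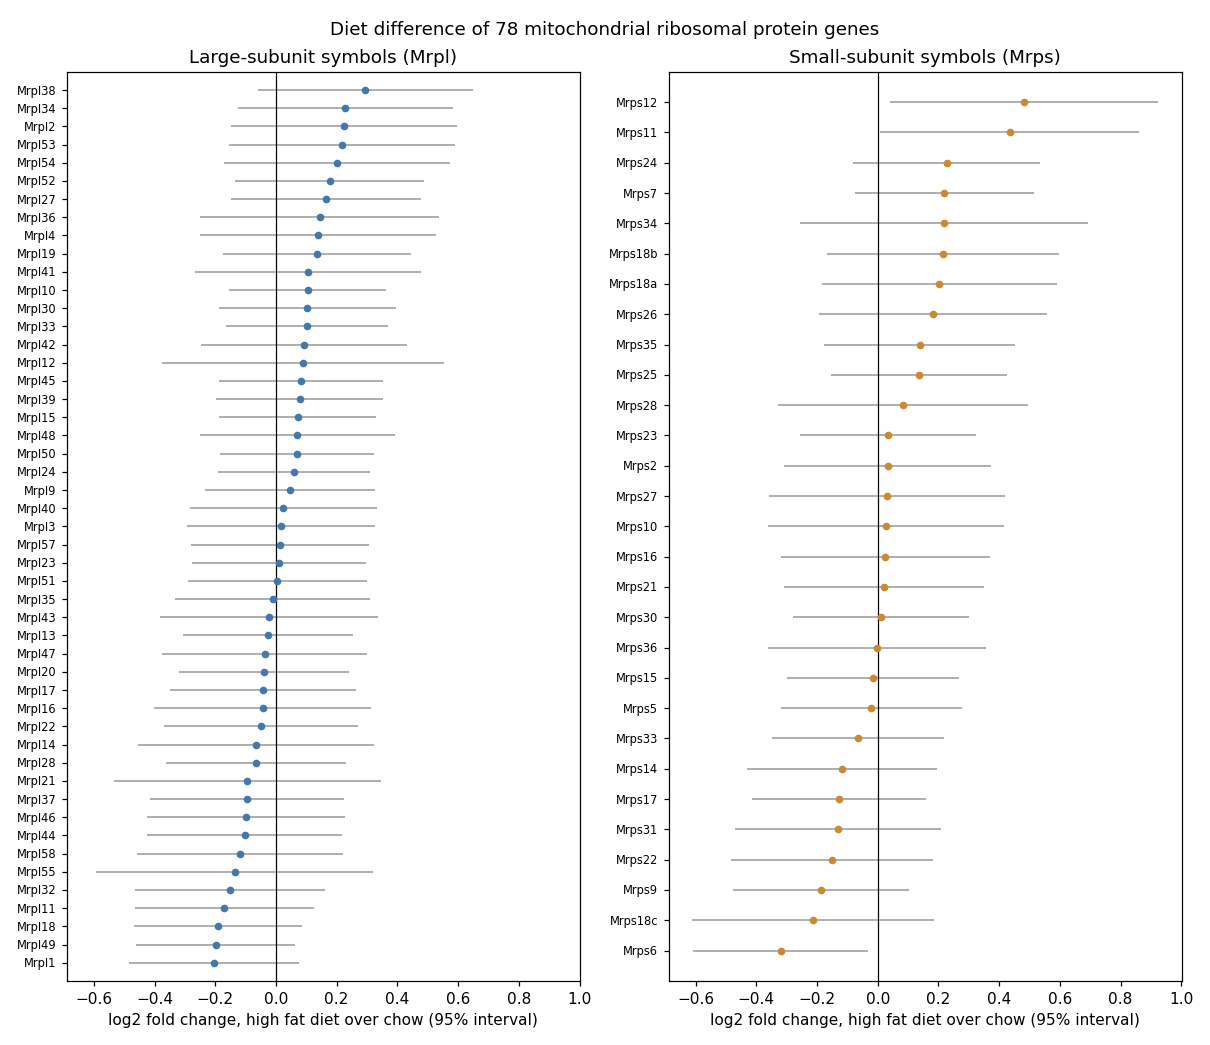
Log2 fold change of high fat diet over chow for each of the 78 genes (points) with its 95% interval (lines). Intervals were derived from the edgeR test, and genes are split by subunit symbol and sorted by value. The 3 intervals that leave out 0 are those of Mrps12, Mrps11 and Mrps6, and all lines lie between -0.61 and 0.92.

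Mrps6 (gene ID 121022; mm10 chromosome 16, 92058270 to 92112227, plus strand) encodes a small-subunit protein with a bacterial counterpart. It stood at 48.1 and 57.7 CPM on chow and 45.2, 43.8 and 38.2 CPM on the high fat diet. Every high fat diet library was below both chow libraries, and chow 8 was highest. The log2 fold change was -0.32 (SE 0.13, 95% interval -0.61 to -0.03, adjusted p 0.856 by edgeR). Without chow 8 it was -0.18 (unadjusted p 0.306, edgeR), in a fit where chow is a single library assumed to vary like the high fat diet libraries, and without high fat diet 9 or 10 the unadjusted p was also above 0.05 (0.0619 and 0.0684). Chow 8 is also the library with the fewest muscle marker counts, at 839 CPM. High fat diet 10, the lowest library for Mrps6, had the next fewest, at 1252 CPM. The part of muscle content in Mrps6 was not tested. The exons of Mrps6 overlap those of Slc5a3, the inositol transporter gene, and those of Gm49711 on the same strand. Added up over both genes the overlap is 464 bases, and reads there cannot be assigned to a single gene. Slc5a3 itself stood at 1553, 2006, 1717, 1591 and 1178 CPM, with a log2 fold change of -0.25 (SE 0.19), and its highest and lowest libraries were those of Mrps6.

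Mrps12 (gene ID 24030; mm10 chromosome 7, 28739641 to 28741820, minus strand) encodes a protein of the decoding centre of the small subunit. It stood at 9.19 and 9.01 CPM on chow and 14.1, 9.82 and 14.2 CPM on the high fat diet. High fat diet 2 and 10 were well above chow, and high fat diet 9 was only just above it. The log2 fold change was 0.48 (SE 0.19, 95% interval 0.04 to 0.92, adjusted p 0.869 by edgeR), and it was 0.39 without high fat diet 10 and 0.64 without high fat diet 9. Mrps11 (gene ID 67994; mm10 chromosome 7, 78783119 to 78792989, plus strand), a protein of the small-subunit platform that holds the mRNA, was also highest in high fat diet 2 and 10. It stood at 5.88 and 6.50 CPM on chow and 9.12, 7.01 and 8.96 CPM on the high fat diet, with a log2 fold change of 0.43 (SE 0.19, 95% interval 0.01 to 0.86, adjusted p 0.905 by edgeR). Again every high fat diet library was above both chow libraries, with replicate 9 the lowest of them. Both kept an unadjusted p under 0.05 when high fat diet 9 was left out, and neither did without high fat diet 2 or 10. Without either chow library neither did as well, but those fits hold a single chow library, assumed to vary like the high fat diet libraries.

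**Figure D3:**
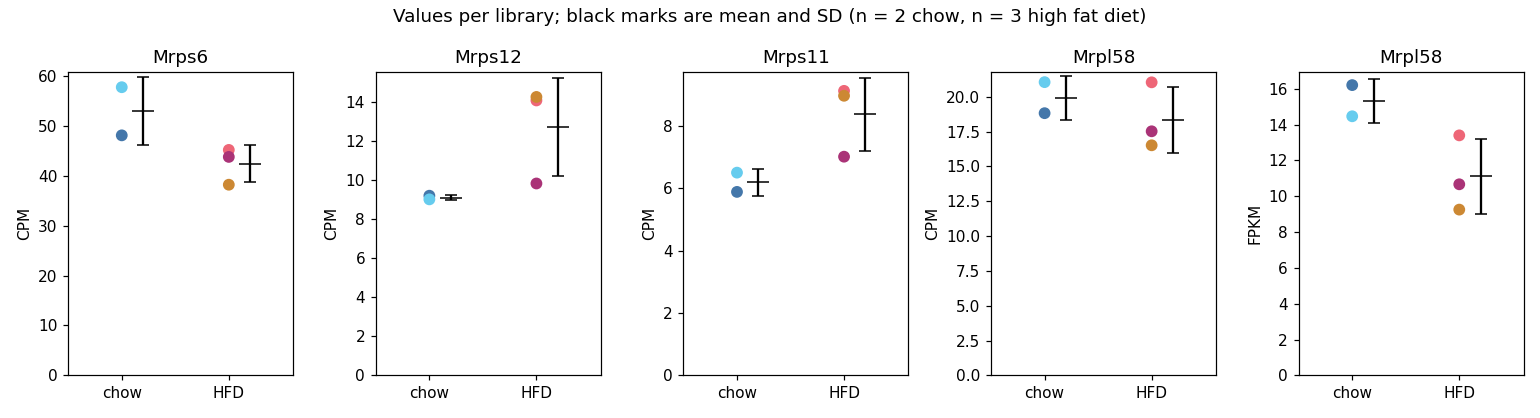
Values per library for Mrps6, Mrps12, Mrps11 and Mrpl58 in CPM and for Mrpl58 also in FPKM, all from an axis start of 0, with the mean and SD in black (n = 2 chow, n = 3 high fat diet). Mrps6 lies lower on the high fat diet, Mrps12 and Mrps11 lie higher with 1 library near chow, and Mrpl58 overlaps between diets in CPM but not in FPKM.

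Nuclear genes for mitochondrial proteins are known for binding sites of the factors NRF1, GABP (an ETS factor) and YY1. The windows of Mrpl32 and Mrps27 hold motifs of more than 1 of these 3 types. Promoter stretches are shown for these 2 genes and for Mrps6, Mrps12 and Mrps11. Each runs 120 bases up to the start site and 30 bases from it, 5′ to 3′ on the gene's strand, from RefSeq on GRCm38.p6, with exact matches to the searched motifs in capitals.
Mrps6, chr16:92058216-92058365, plus strand: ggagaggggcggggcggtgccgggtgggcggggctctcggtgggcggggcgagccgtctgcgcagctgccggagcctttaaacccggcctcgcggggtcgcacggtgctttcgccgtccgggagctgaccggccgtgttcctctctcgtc
Mrps12, chr7:28741792-28741941, minus strand: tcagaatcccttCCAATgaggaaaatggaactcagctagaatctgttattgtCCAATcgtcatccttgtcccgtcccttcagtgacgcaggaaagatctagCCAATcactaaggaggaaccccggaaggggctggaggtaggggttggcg
Mrps11, chr7:78783011-78783160, plus strand: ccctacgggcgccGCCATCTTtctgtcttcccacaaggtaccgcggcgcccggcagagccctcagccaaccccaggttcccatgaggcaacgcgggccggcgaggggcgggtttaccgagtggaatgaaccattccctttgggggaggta
Mrpl32, chr13:14613008-14613157, minus strand: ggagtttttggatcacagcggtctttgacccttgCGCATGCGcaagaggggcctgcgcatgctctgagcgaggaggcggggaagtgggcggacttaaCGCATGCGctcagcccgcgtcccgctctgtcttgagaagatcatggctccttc
Mrps27, chr13:99344666-99344815, plus strand: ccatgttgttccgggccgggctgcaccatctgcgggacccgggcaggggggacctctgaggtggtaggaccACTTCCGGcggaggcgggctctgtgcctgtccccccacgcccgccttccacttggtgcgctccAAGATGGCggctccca
The capitals mark CCAAT in Mrps12, the reverse strand of AAGATGGC in Mrps11, a pair of CGCATGCG in Mrpl32, and the reverse strand of CCGGAAGT followed by AAGATGGC in Mrps27. The YY1-type match in the Mrpl32 window lies upstream of the stretch shown. The Mrps6 stretch holds none of the 4 motifs.

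RefSeq promoter windows, from 250 bases before to 50 bases after the start, were matched for 69 of the 78 genes and searched on both strands for these exact letters. The ETS-type motif CCGGAAGT was in a window of 12 of the 69 genes (17.4%), against 7.97% of 12324 tested genes. The NRF1-type motif CGCATGCG, a palindrome, was in 7 genes (10.1%), against 3.78%. The YY1-type motif AAGATGGC was in 12 genes (17.4%), against 4.62%. Any of these 3 was in 29 of the 69 genes (42.0%), against 15.3% of the tested genes. By contrast the NFY-type motif CCAAT was in 27 genes (39.1%), against 42.3%. Some genes have several windows, and counted over the 75 windows of the 69 genes these 4 motifs were in 12, 7, 12 and 30, or 16%, 9.33%, 16% and 40%. Over all 32851 windows of the table the shares were 3.89%, 1.87%, 2.75% and 37.4%. Of the 12 ETS-type matches 9 lay within 100 bases upstream of the start. Of the 12 YY1-type matches 8 lay at or after the start, and in 6 genes (Mrpl35, Mrpl49, Mrps18a, Mrps24, Mrps27 and Mrps7) the letters ATG inside the motif were the annotated start codon. No match of these 3 motifs overlapped a match of another, and a match is a description of letters, not a bound site.

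Within the large subunit, the stalk proteins are given first. Mrpl1, the counterpart of the mobile bacterial stalk protein beside the exit site of the tRNA, stood at 25.7 and 25.02 CPM on chow and 24.1, 21.1 and 21.0 CPM on the high fat diet, with no overlap and a log2 fold change of -0.20 (SE 0.12), the most negative of the 49. Mrpl10, which anchors the stalk that recruits translation factors, stood at 31.8, 32.8, 36.0, 31.8 and 36.4 CPM, with overlapping diets and a log2 fold change of 0.10. Mrpl12, the protein of that stalk itself, which in human cells also binds the mitochondrial RNA polymerase, stood at 7.71, 5.65, 7.11, 6.27 and 7.93 CPM. The 2 chow libraries spanned most of the range of Mrpl12, and its log2 fold change of 0.09 (SE 0.20) turned negative without chow 8.

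Other large-subunit genes lay within 0.30 of 0. Mrpl38 had the highest log2 fold change of the 49, 0.29 (SE 0.16, adjusted p 0.952 by edgeR), from 17.6 and 22.6 CPM on chow and 25.4, 21.7 and 26.7 CPM on the high fat diet, and high fat diet 9 lay between the chow libraries. Mrpl34 stood at 8.10 and 8.64 CPM on chow and 9.53, 9.28 and 10.6 CPM on the high fat diet, with no overlap and a log2 fold change of 0.23 (SE 0.16). Mrpl49 stood at 25.5 and 25.1 CPM on chow and 21.7, 23.0 and 21.4 CPM on the high fat diet, also with no overlap, at -0.20 (SE 0.11). Mrpl41 stood at 14.9, 13.9, 18.3, 13.9 and 14.2 CPM, where high fat diet 2 alone was high. The authors' deposited table, which gives its own fold and p-value per gene, listed 3 of the 78 at unadjusted p under 0.05 (3.85%, against 3.87% of all genes): Mrpl34 higher, and Mrpl18 and Mrpl49 lower on the high fat diet. Its lowest adjusted p among the 78 was 0.971.

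Mrpl58, a peptidyl-tRNA hydrolase built into the large subunit and known for rescuing stalled ribosomes, gave different answers by unit. It stood at 18.8 and 21.1 CPM on chow and 21.0, 17.5 and 16.5 CPM on the high fat diet, with overlapping diets and a log2 fold change of -0.12 (SE 0.15). Its deposited levels were 16.2 and 14.5 FPKM on chow and 13.4, 10.7 and 9.26 FPKM on the high fat diet, with no overlap. Relative to the shift of 0.08 between the units over all genes, its log2 difference in FPKM was lower by more than 0.3 than in CPM. It was the only one of the 78 with so large a gap (1.28%), against 27 of 15765 genes (0.171%), and the next largest gap among the 78 was 0.05.

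Within the small subunit, the Mrps18 family encodes 3 related proteins of which Mrps18b and Mrps18c take places in the small subunit and Mrps18a in the large. Mrps18a stood at 10.2, 10.7, 13.5, 10.0 and 12.4 CPM and Mrps18b at 9.86, 12.9, 13.6, 11.9 and 13.97 CPM, with log2 fold changes of 0.20 and 0.21. Mrps18c stood at 18.6, 16.3, 17.9, 14.9 and 12.4 CPM, with a log2 fold change of -0.21 (SE 0.17). In all 3 the diets overlapped. High fat diet 10 was the lowest library for Mrps18c and among the highest 2 for the others.

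A few further small-subunit symbols were examined whatever their values. Mrps27, an RNA-binding protein with pentatricopeptide repeats, stood at 12.4, 10.4, 12.2, 9.92 and 12.8 CPM (log2 fold change 0.03). Mrps34 stood at 5.51, 6.89, 7.61, 5.89 and 8.13 CPM (0.22, SE 0.21), and its gene overlaps exons of Mapk8ip3 (-0.24, SE 0.11) and Nme3, so its counts are uncertain. Mrps30, a large-subunit protein, stood at 18.4, 18.4, 18.9, 17.2 and 19.5 CPM (0.01). Mrps36 stood at 8.36, 8.52, 8.10, 9.14 and 8.03 CPM, with a log2 fold change of -0.00 (SE 0.16). The diets overlapped in all of them.

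The balance between the subunits was nearly the same in every library. Large-subunit genes summed to 979, 996, 1074, 951 and 988 CPM, and small-subunit genes to 466, 490, 512, 458 and 466 CPM. The ratio of these sums was 2.10, 2.03, 2.10, 2.08 and 2.12, or 2.07 ± 0.0504 (SD, n = 2) for chow against 2.10 ± 0.0223 (SD, n = 3) for high fat diet, and the diets overlapped. In FPKM it was 1.93, 1.83, 1.92, 1.91 and 1.97. With Mrps30 and Mrps18a moved to the large subunit and Mrps36 left out, the CPM ratio was 2.35, 2.26, 2.35, 2.32 and 2.40. The median log2 fold change was 0.02 for the large and 0.03 for the small subunit. Of the 29 small-subunit genes 2 were higher (6.90%) and 1 lower (3.45%) at unadjusted p under 0.05, and none of the 49 large-subunit genes was either, where 2.95% and 2.47% of all genes were. Without overlap, 6 small-subunit genes were higher (20.7%) and 3 lower (10.3%), and 6 large-subunit genes were higher and 6 lower (12.2% each), where 10.6% and 10.3% of all genes were. The subunits were not tested against each other.

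Libraries of one diet differed by more than the median difference between the diets. High fat diet 2 was the highest library for 34 of the 78 genes and the lowest for 1, whereas high fat diet 9 was the highest for 3 and the lowest for 25. High fat diet 10 was the highest for 24 and the lowest for 29. Of all 15765 genes tested, high fat diet 2, 9 and 10 were the highest for 3125, 2376 and 4683. They were the lowest for 3039, 2145 and 4444. As a deviation from each gene's mean log2 CPM over the 5 libraries, the median of the 78 was -0.02, 0.01, 0.11, -0.08 and 0.00. Nuclear respiratory chain genes had medians of 0.17 in high fat diet 2 and -0.11 in high fat diet 10, and cytosolic ribosomal protein genes 0.21 and -0.12. Without high fat diet 2 the median log2 fold change of the 78 was -0.04, and without high fat diet 9 it was 0.06.

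**Figure D4:**
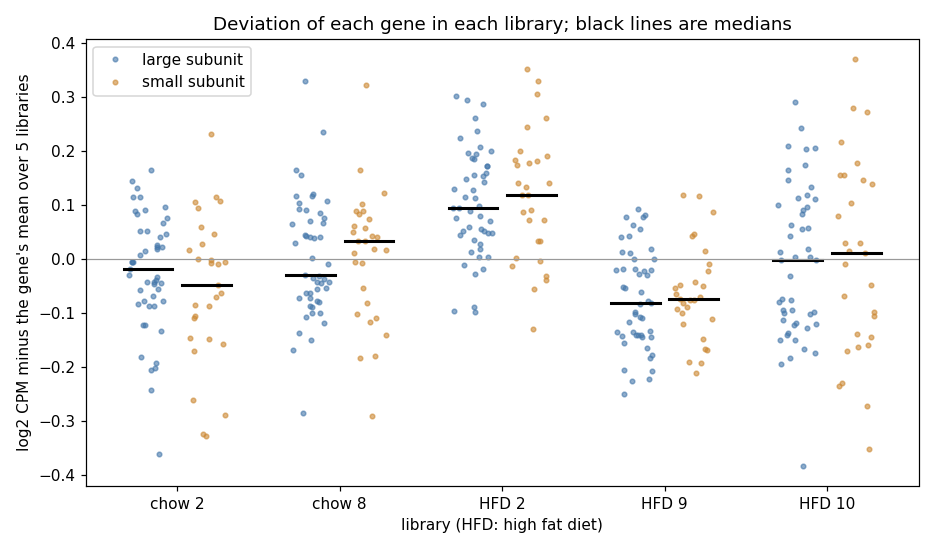
Log2 CPM of each gene minus its mean over the 5 libraries, by library and subunit symbol, with 1 point per gene and black lines at the medians. Both subunits lie high in high fat diet 2 and low in high fat diet 9, and the points of high fat diet 10 spread widely around 0.

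The deviations in high fat diet 10 varied with the base composition of the transcripts. The transcripts of the 78 genes had a median GC content of 50.9%, against 50.4% for all genes, and a median length of 1224 bases, against 2820 bases. Across the 78 genes Spearman's rho between GC content and the log2 fold change was 0.40, with 0.28 for the 49 large-subunit and 0.65 for the 29 small-subunit genes, against 0.16 across 15546 genes of the whole table with a value. Between GC content and the deviation in high fat diet 10 it was 0.41 for the 78 and 0.37 for all genes. In high fat diet 2 it was 0.27 for the 78 and -0.12 for all genes, and in high fat diet 9 it was -0.22 for both. In chow 2 it was -0.38 and -0.21, and in chow 8 -0.22 and 0.01. These are descriptions across genes that share libraries and depth. The 26 genes of highest GC content (52.5% to 60.6%) had a median log2 fold change of 0.16 with 19 above 0. All genes in that range had a median of 0.05, with 3214 of 5417 above 0. The 26 of lowest GC content (39.6% to 48.4%) had a median of 0.00 with 13 above 0. All genes in that range had a median of -0.01, with 2648 of 5574 above 0. The part of base composition in the values of Mrps12 and Mrps11 was not tested.

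**Figure D5:**
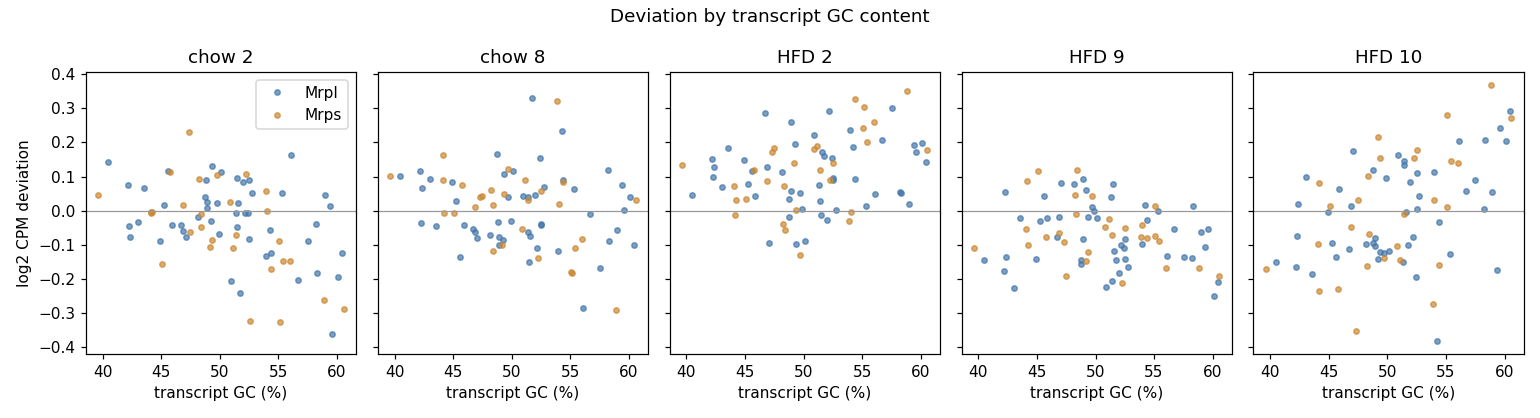
Deviation of log2 CPM from the gene's mean (vertical axis) against GC content of the transcript in percent (horizontal axis) for the 78 genes, in 1 panel per library, with colours for the subunit symbol. Points lie higher at high GC content in high fat diet 10 and lower in chow 2, with rho of 0.41 and -0.38.

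The genes that build, regulate and use the mitochondrial ribosome gave similar counts. None of them passed an adjusted p of 0.05 in edgeR. Of 5 mitochondrial ribosomal proteins with other names, 3 lay above 0 with a median of 0.06, and Dap3, a GTP-binding protein of the small subunit, was at 0.14 (SE 0.12). Of 28 assembly factors 12 lay above 0, with a median of -0.01, and of 16 translation factors 10 did, with a median of 0.06. Of 17 mitochondrial tRNA synthetases 8 lay above 0, with a median of -0.01. Of 16 genes for transcription and copying of mitochondrial DNA 8 did, with a median of 0.02. At unadjusted p under 0.05 none of these 5 lists had a gene in either direction. Over all genes 2.95% were higher and 2.47% lower, and 52.7% lay above 0. No symbol searched for the mitochondrially encoded mRNAs and rRNAs was among the 16413 genes, so they could not be analysed.

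Among 10 regulators of mitochondrial biogenesis, 5 lay above 0 and none had an unadjusted p under 0.05. Ppargc1a, the coactivator PGC-1 alpha, had a mean of 70.7 CPM in the chow libraries (SD 13.0, n = 2) against 43.1 CPM in the high fat diet libraries (SD 17.7, n = 3), a log2 fold change of -0.72 (SE 0.42, adjusted p 0.970 by edgeR). Esrra, the orphan receptor ERR alpha that partners with it, had means of 15.9 CPM (SD 1.25) and 19.4 CPM (SD 3.02), a log2 fold change of 0.29 (SE 0.16). The transcription factors Nrf1 and Gabpa, and Tfam and Polrmt, which pack and transcribe mitochondrial DNA, had log2 fold changes of 0.10, -0.04, -0.00 and 0.09. For scale, nuclear respiratory chain genes had 46 of 80 (57.5%) above 0 with a median of 0.01, where 52.7% of all genes lay above 0. At unadjusted p under 0.05, 1 of the 80, Ndufv3, was lower (1.25%), where 2.47% of all genes were. Cytosolic ribosomal protein genes had 60 of 83 (72.3%) above 0 with a median of 0.06. Of these 1, Rps13, was higher at unadjusted p under 0.05 (1.20%), where 2.95% of all genes were. The 3 lists were not tested against each other.

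Many of these genes share their surroundings with another gene. In GENCODE on mm10, 18 of 78 (23.1%) had a protein-coding gene on the opposite strand starting within 1000 bases upstream, against 9.26% of 14486 genes. Exons of 28 (35.9%) overlapped an exon on the opposite strand and those of 8 (10.3%) an exon on the same strand. The shares of all genes with such exon overlaps were not computed. The libraries were stranded, but whether counting used strand is not given in the sources used here, so the counts of these genes are uncertain. Mrps12 starts 172 bases from Sars2, the mitochondrial seryl-tRNA synthetase gene, which stood at 3.03, 4.11, 3.42, 3.74 and 4.27 CPM with a log2 fold change of 0.09 (SE 0.24) beside 0.48 for Mrps12. Mrps11 overlaps Mrpl46 by 173 exonic bases on opposite strands, and Mrpl46 stood at 12.8 and 13.0 CPM on chow and 12.4, 11.03 and 12.7 CPM on the high fat diet, at -0.10 beside 0.43 for Mrps11.

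The other divergent neighbours were also read out. Mrpl32 starts 75 bases from the proteasome gene Psma2 (-0.01), Mrps27 81 bases from Ptcd2 (-0.17) and Mrpl49 59 bases from Fau (-0.07). Apba3, 26 bases from Mrpl54, stood at 15.9 and 17.2 CPM on chow and 20.9, 17.9 and 24.1 CPM on the high fat diet, with no overlap, at a log2 fold change of 0.34 (SE 0.16). Over the 18 divergent neighbours the median log2 fold change was -0.01. Lrrc46, which starts 153 bases from Mrpl10, was the only one of the 18 at unadjusted p under 0.05. It was higher on the high fat diet, as were 2.95% of all genes. It stood at 0.116 and 0.0730 CPM on chow and 0.425, 0.319 and 1.05 CPM on the high fat diet, with no overlap, at a log2 fold change of 2.62 (SE 0.76, adjusted p 0.661 by edgeR). Its highest library was high fat diet 10, which also held the most airway marker counts, and Mrpl10 beside it was at 0.10.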

How the data were processed

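Per the labels' protocols, total RNA of thyroid glands was made into stranded total RNA libraries. The submitters' processing notes name HISAT2, StringTie, DESeq2 and mm10, without roles or versions. The authors deposited raw read counts and FPKM per gene for 16413 genes, none with a count under 1 in any library. The authors' deposited table also gives a signed fold (a score never between -1 and 1) and p-values, adjusted and not. A further 3 per-sample columns were not used. High fat diet columns were matched by treatment and number.

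Counts of the 5 libraries were fitted on diet with edgeR 4.0.16 in R 4.3.3 (TMM, filterByExpr, which removed 648 genes, robust quasi-likelihood test), with Benjamini-Hochberg adjustment over 15765 genes at 0.05. Replicate variation (common biological coefficient of variation) came to 18.8%. Reported CPM use TMM-scaled library sizes. The steps were tested on simulated data. Alternatives were RLE, upper-quartile or no factors, no filter or 1 CPM, DESeq2 1.42.0, limma 3.58.1 (voom, and on log2(FPKM + 1)), no robust shrinkage, subunits by structure and leaving out each library. Values were given per library for genes of the highest and lowest FPKM and fold change, those at unadjusted p under 0.05, and a few chosen for their role. The members, gene lists and tests were chosen with earlier results of these data known. Total counts per library ran from 43494747 to 52663677.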

Additional observations from a re-analysis of the deposited data

How the results depend on the processing

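No paired analysis was possible because the diets share a single replicate number. No member passed an adjusted p of 0.05 under any of the 14 alternatives, where the lowest adjusted p ran from 0.694 with DESeq2 to 1. Over all genes, DESeq2 called 93, and leaving out 1 library in edgeR gave 0 to 5. Without factors the median log2 fold change was 0.1085 for all members and 0.09795 for the large subunit, with 3 members higher and 0 lower at unadjusted p, where 4.89% and 1.35% of all genes were, and all genes shifted by 0.10. With limma on log2(FPKM + 1) 8 members were higher at unadjusted p, where 4.95% of all genes were, the large-subunit median was 0.09058 and all genes shifted by 0.07. With voom 0 members were higher, where 2.54% of all genes were. Leaving out 1 library (a chow library left out leaves 1, assumed to vary like the high fat diet libraries) gave 0 to 2 members higher, where 2.09% to 3.9% of all genes were, 0 to 1 lower, where 1.44% to 3.09% were, and a large minus small median from -0.0624 (without chow 8) to 0.06223 (without chow 2). Counting subunits by structure moved no median beyond the spread between libraries.

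Of 364 values of 26 named genes, 342 kept their direction and 22, in 8 genes, changed sign. Leaving out 1 library, the log2 fold change ran from -0.1147 to 0.3264 for Mrpl12, -0.1084 to 0.05443 for Mrpl17, -0.03429 to 0.1772 for Mrpl41, -0.04133 to 0.105 for Mrps2, -0.08058 to 0.1273 for Mrps21, -0.08353 to 0.1555 for Mrps27, -0.02743 to 0.06155 for Mrps30 and -0.06548 to 0.03019 for Mrps36. Without factors Mrpl17 was at 0.04496 and Mrps36 at 0.08205, and in FPKM they were at 0.02958 and 0.07423. Mrps36 was at 0.0003944 with no filter and 0.000578 with the 1 CPM filter. The cause was not tested.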
